A study of Mus musculus with 16 samples.

Results

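The 9 genes described here act in mitophagy, in the fusion and fission of mitochondria and in the upkeep of mitochondrial DNA (mtDNA). They were chosen by name, Bnip3, Bnip3l, Fundc1, Pink1, Mfn1, Mfn2, Opa1, Dnm1l and Tfam, and all 9 were found among the 55492 genes of the deposited table. All 9 passed the filter used for testing, a mean of at least 10 normalized counts over the libraries. RNA came from left ventricles of 16 male C57BL/6 mice aged 8 to 12 weeks, with ribosomal RNA depleted before sequencing. Hearts were PKM2fl/fl (floxed Pkm2, not deleted) or PKM2-/- (global knockout), and were taken at baseline without surgery (2 hearts per genotype), after sham surgery (3 per genotype) or 3 days after myocardial infarction (MI, 3 per genotype). MI was produced by permanent ligation of the left anterior descending artery, and sham mice had the operation without ligation. The knockout was made by CMV-driven Cre in the germline, after which the Cre allele was bred out. PKM2 was therefore absent from every tissue and throughout development, and the PKM2fl/fl controls carried floxed alleles. The table counts Pkm as 1 gene with both isoforms together, so it could not show the deleted exon.

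Mitophagy is the removal of damaged mitochondria by autophagy. In one route the kinase PINK1 accumulates on depolarized mitochondria and marks them for removal. In another, receptors of the outer membrane, among them BNIP3, NIX (coded by Bnip3l) and FUNDC1, bind the autophagosome directly and are known for their response to low oxygen. The mitofusins MFN1 and MFN2 join outer membranes, OPA1 joins inner membranes and shapes cristae, and the GTPase DRP1 (coded by Dnm1l) divides mitochondria. TFAM packages mtDNA and starts its transcription. Cardiomyocytes hold very many mitochondria and depend on this turnover for their energy supply.

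The promoters of Bnip3, Pink1 and Opa1, 3 genes whose transcripts differed between sham and MI hearts, are shown as examples. They held matches to elements named for low oxygen or for nuclear control of mitochondrial genes. Windows of Mfn2, Dnm1l and Tfam, whose transcripts also differed, held low-oxygen matches too. Each run covers 250 bases before to 50 bases after the start site of transcription on the gene's strand (RefSeq, GRCm38.p6), and capitals mark the matches. The Bnip3 window lies at chr7:138909457-138909756 on the reverse strand, the Pink1 window at chr4:138326247-138326546 on the reverse strand and the Opa1 window at chr16:29579084-29579383 on the forward strand.
Bnip3: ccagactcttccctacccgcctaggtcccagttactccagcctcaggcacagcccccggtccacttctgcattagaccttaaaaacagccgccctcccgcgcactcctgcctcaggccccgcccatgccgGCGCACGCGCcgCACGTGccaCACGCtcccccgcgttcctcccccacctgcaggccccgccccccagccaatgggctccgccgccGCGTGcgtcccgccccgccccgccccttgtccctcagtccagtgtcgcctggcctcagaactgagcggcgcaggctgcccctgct
Pink1: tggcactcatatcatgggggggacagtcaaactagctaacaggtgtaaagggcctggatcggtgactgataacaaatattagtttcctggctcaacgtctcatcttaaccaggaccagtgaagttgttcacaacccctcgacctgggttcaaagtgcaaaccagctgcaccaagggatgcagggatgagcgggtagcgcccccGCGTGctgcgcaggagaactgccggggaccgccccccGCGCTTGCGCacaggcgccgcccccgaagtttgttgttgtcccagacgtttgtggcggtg
Opa1: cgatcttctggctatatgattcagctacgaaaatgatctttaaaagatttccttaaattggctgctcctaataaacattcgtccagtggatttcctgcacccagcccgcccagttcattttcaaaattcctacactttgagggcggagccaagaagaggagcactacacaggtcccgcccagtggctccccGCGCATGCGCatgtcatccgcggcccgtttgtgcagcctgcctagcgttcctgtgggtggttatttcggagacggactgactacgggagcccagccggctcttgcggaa
In Bnip3, the core of the hypoxia response element, ACGTG, matched on both strands in a palindrome that begins at position -108, and the related core GCGTG matched 3 times, at -117, -99 and -35 (position -1 being the last base before the start site). The Bnip3 window also held the element of nuclear respiratory factor 1 (NRF1), GCGC and TGCGC with any single base between, at -120, and the GCGTG match at -117 lies within it. Pink1 held the NRF1 element at -10 and GCGTG at -47, and Opa1 held the NRF1 element at -59. Of 32851 mouse promoters of the same length, searched on both strands, 19.6% held ACGTG, 32.4% held GCGTG and 4.6% held the NRF1 element. The estrogen-related receptor element TNAAGGTCA was found in 1.28% of these promoters and in none of the windows read for the members, which covered 8 of the 9 genes, all but Bnip3l. ACGTG also matched in windows of Mfn2, and GCGTG in those of Mfn2, Dnm1l and Tfam. An ETS element, CCGGAAG, found in 8.86% of promoters, matched in Mfn1, Dnm1l and Tfam. These matches describe letters and not occupied sites.

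The libraries held 20623769 to 71855101 reads on genes. Reads per library ranged from 260 to 1414 for Tfam, which had the fewest in any library, and from 2306 to 26680 for Mfn2, which had the most. Levels are given as normalized counts, the reads of a gene divided by the size factor of its library. Cell type markers differed between sham and MI hearts. The summed level of 14 cardiomyocyte markers was 1469111 to 1816355 normalized counts in the 6 sham hearts and 334662 to 735105 in the 6 MI hearts. For 12 leukocyte markers the sums were 6110 to 12422 and 25942 to 44532, and for 9 fibroblast markers 27359 to 51750 and 186123 to 248506. In bulk tissue, fewer cells of a type and less RNA per cell cannot be told apart. Within the PKM2fl/fl MI group, replicate 3 stood apart: its cardiomyocyte marker sum was 20.3% of the sham median, against 43.4% and 43.6% in replicates 1 and 2. The PKM2-/- MI hearts were at 19.9% to 26.2%. Changes after MI that moved most without that library are also given without it. The rRNA-related loci took 17.3% to 22.1% of reads in PKM2fl/fl and 39.6% to 43.8% in PKM2-/- hearts at baseline, and 15.8% to 27.8% and 28.5% to 46.0% after sham surgery, while the genotypes overlapped after MI.

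In the 10 hearts without infarction, levels per kb of exon sequence covered more than an order of magnitude. Lengths were those of all annotated exons of a gene together and not of a single transcript, so comparisons between genes depend on them. They include bases shared with genes on the opposite strand, most of all in Dnm1l (49.3%), Mfn1 (40.4%) and Pink1 (37.4%). The effect of these shared bases on the order of levels was not tested. Pink1 had the highest level, 1777 ± 146 normalized counts per kb (SD, n = 10), followed by Mfn2 at 1196 ± 101 and Bnip3 at 834 ± 187. Mfn1 (532 ± 35.5), Opa1 (505 ± 29.8) and Dnm1l (399 ± 21.5) were intermediate. Bnip3l (177 ± 17.1), Tfam (148 ± 10.4) and Fundc1 (123 ± 6.98) were lowest. The ranges of Mfn2 and Bnip3, of Bnip3 and Mfn1, of Mfn1 and Opa1, of Bnip3l and Tfam and of Tfam and Fundc1 overlapped between hearts. Within each of the 10 hearts, Mfn2 was above Bnip3, Bnip3 above Mfn1, Bnip3l above Tfam and Tfam above Fundc1. Mfn1 and Opa1 changed order, with 511 and 513 in PKM2fl/fl baseline 1 and 614 and 503 in PKM2-/- baseline 2. After MI the same scale ran from 460 ± 179.7 (n = 6) for Pink1 to 90.1 ± 8.50 for Tfam. Pink1, Mfn2 (424 ± 137) and Bnip3 (423 ± 56.5) then overlapped, while Mfn1, at 186 ± 53.5, lay below Dnm1l (291 ± 25.0), Opa1 (245 ± 34.1) and Bnip3l (208 ± 28.9), although its range overlapped those of Opa1 and Bnip3l.

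**Figure D1:**
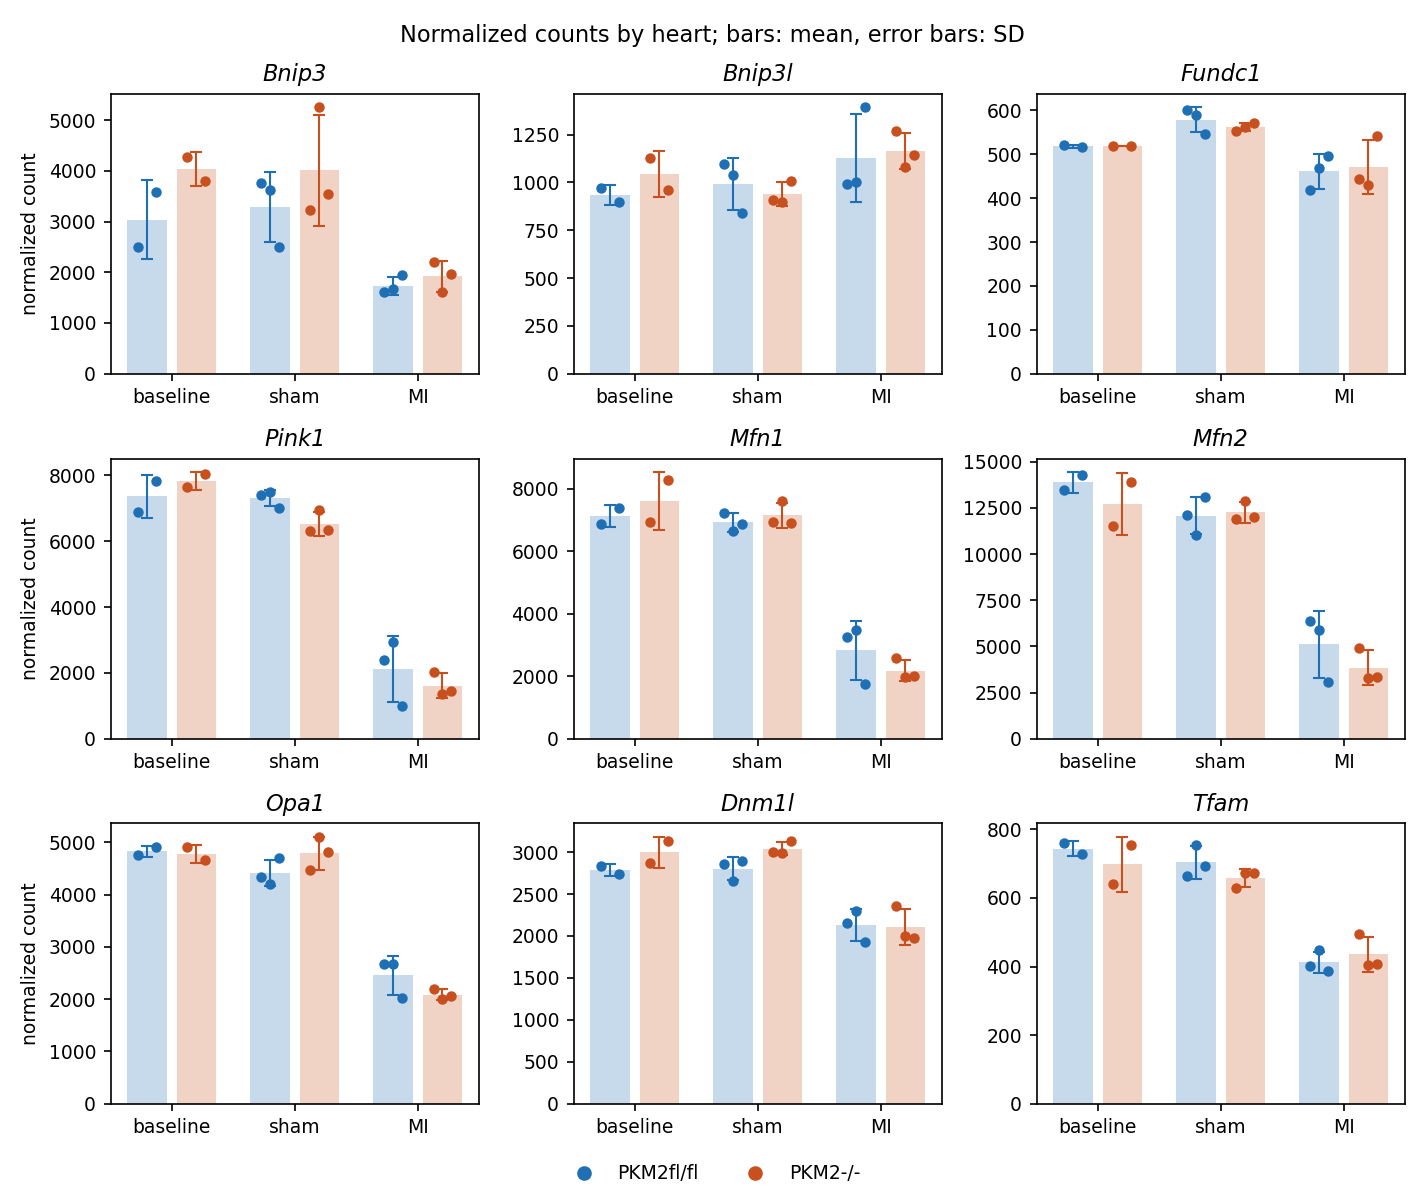
Normalized counts of the 9 genes (vertical axes, each starting at 0) in baseline, sham and MI hearts. Points are single hearts, bars are group means and error bars are SD; blue is PKM2fl/fl and orange PKM2-/-. In every panel but that of Bnip3l, the 6 MI hearts lie below the 6 sham hearts.

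MI was compared with sham surgery in each genotype and over both. In PKM2fl/fl hearts 8 of the 9 genes fell at an adjusted p under 0.05 (limma with Benjamini-Hochberg adjustment over 20576 genes), against 25.3% of all genes tested. In PKM2-/- hearts 8 of 9 fell, against 28.1% of all genes. Over both genotypes the same test called 8 genes lower, against 32.7% of all genes, and Bnip3l higher, against 32.9%. For these 8 genes every MI heart lay below every sham heart, which was so for 20.2% of all genes. Pink1, Mfn1, Mfn2 and Opa1 fell at least 2-fold, as did 13.2% of all genes. Without PKM2fl/fl MI 3 the log2 fold change of Opa1 was -0.96, under 2-fold, and that of Bnip3 was -1.01. The median log2 fold change over both genotypes was -0.97 for the 9 genes and 0.01 for all genes tested.

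Pink1, on chromosome 4 from 138313409 to 138326296 (reverse strand, GRCm38.p6), codes for the kinase that marks depolarized mitochondria for removal and had the largest fall of the 9. In PKM2fl/fl hearts its normalized counts were 7418, 7488 and 7020 after sham surgery and 2401, 2927 and 990 after MI. In PKM2-/- hearts they were 6313, 6941 and 6328 after sham surgery and 2040, 1346 and 1457 after MI. The lowest sham heart was more than 2-fold above the highest MI heart. The log2 fold change was -1.94 (SE 0.28, limma adjusted p = 4.17e-05) in PKM2fl/fl and -2.04 (SE 0.28, adjusted p = 1.75e-05) in PKM2-/- hearts, or 3.96-fold lower over both. Without PKM2fl/fl MI 3 it was -1.46 (SE 0.14, limma adjusted p = 2.09e-06) in PKM2fl/fl hearts. Ddost, on the opposite strand, shares 37.4% of the exon bases of Pink1, and the library kit did not mark strand. Ddost rose in the same comparison, by a log2 fold change of 0.92 (SE 0.07).

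Among the receptors, Bnip3 fell while Bnip3l did not. Bnip3 (chromosome 7, 138890836 to 138909506, reverse strand) had 3766, 3614 and 2498 normalized counts in PKM2fl/fl sham hearts and 1601, 1665 and 1938 after MI. In PKM2-/- hearts it had 3223, 5262 and 3537 after sham surgery and 2202, 1602 and 1961 after MI. Sham hearts varied 2.11-fold from lowest to highest and MI hearts 1.37-fold. Its log2 fold change was -0.91 (SE 0.20, limma adjusted p = 0.00147) in PKM2fl/fl and -1.04 (SE 0.20, adjusted p = 0.000388) in PKM2-/- hearts. The non-coding gene Gm45507 shares 11.7% of the exon bases of Bnip3 on the opposite strand.

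Bnip3l (chromosome 14, 66985238 to 67008877, reverse strand) codes for NIX, the close relative of BNIP3. It had 1096, 1040 and 838 normalized counts in PKM2fl/fl sham hearts and 992, 1001 and 1396 after MI, so the groups overlapped. PKM2-/- hearts had 908, 897 and 1010 after sham surgery and 1270, 1083 and 1141 after MI, without overlap. MI changed it by a log2 fold change of 0.18 (95% confidence interval -0.11 to 0.47, limma adjusted p = 0.296) in PKM2fl/fl and 0.31 (0.02 to 0.60, adjusted p = 0.0655) in PKM2-/- hearts. Neither passed the threshold. Without PKM2fl/fl MI 3 the change in PKM2fl/fl hearts was 0.02 (-0.24 to 0.27, limma adjusted p = 0.923). Over both genotypes Bnip3l rose by 0.24 (SE 0.10, limma adjusted p = 0.0366). This call was lost when PKM2fl/fl sham 3, PKM2fl/fl MI 3 or any of PKM2-/- sham 1, sham 2, MI 1 and MI 3 was left out, with adjusted p between 0.0535 and 0.104. The PKM2-/- comparison passed without PKM2fl/fl MI 3 (limma adjusted p = 0.0217). The pseudogene Bnip3l-ps, which could take reads from Bnip3l, had at most 98.1 normalized counts.

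Fundc1 (chromosome X, 17519967 to 17572329, reverse strand), the remaining receptor, had the smallest fall. It had 602, 589 and 546 normalized counts in PKM2fl/fl sham hearts and 419, 468 and 497 after MI. Its values in PKM2-/- hearts were 553, 562 and 571 after sham surgery and 443, 431 and 542 after MI. Its highest MI heart was just below its lowest sham heart. On the log2 scale the change was -0.33 (SE 0.10, limma adjusted p = 0.0147) in PKM2fl/fl, -0.26 (SE 0.10, adjusted p = 0.0431) in PKM2-/- hearts and -0.29 (SE 0.07, adjusted p = 0.00228) over both. In PKM2-/- hearts alone the call was lost in 12 of the 16 fits that left out 1 library, all but those without PKM2fl/fl sham 3, PKM2fl/fl MI 1, PKM2fl/fl MI 3 or PKM2-/- MI 3 (limma adjusted p up to 0.167). In PKM2fl/fl hearts it was lost without PKM2fl/fl sham 1 (limma adjusted p = 0.0548) or PKM2fl/fl MI 1 (0.0633). Gm35156, a non-coding gene on the opposite strand, shares 8.27% of the exon bases of Fundc1.

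Both mitofusin genes fell by similar amounts. Mfn1 (chromosome 3, 32529443 to 32579225, forward strand) had 7240, 6662 and 6871 normalized counts in PKM2fl/fl sham hearts and 3259, 3467 and 1757 after MI. In the knockout it had 6929, 7619 and 6912 after sham surgery and 2579, 1966 and 2002 after MI. No MI heart of either genotype reached the level of any sham heart. Its change on the log2 scale was -1.35 (SE 0.19, limma adjusted p = 4.32e-05) in PKM2fl/fl and -1.72 (SE 0.19, adjusted p = 3.38e-06) in PKM2-/- hearts. Leaving out PKM2fl/fl MI 3 gave -1.04 (SE 0.12, limma adjusted p = 6.74e-06) in PKM2fl/fl hearts.

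Mfn2 (chromosome 4, 147873586 to 147904909, reverse strand), which also tethers mitochondria to the endoplasmic reticulum, had 12135, 11053 and 13079 normalized counts in PKM2fl/fl sham hearts and 6359, 5908 and 3052 after MI. PKM2-/- values were 11900, 12903 and 11986 after sham surgery and 4927, 3310 and 3327 after MI. As with Pink1 and Mfn1, PKM2fl/fl MI 3 was the lowest heart of all and the other PKM2fl/fl MI hearts the highest of the MI hearts. This was a log2 fold change of -1.31 (SE 0.22, limma adjusted p = 0.000176) in PKM2fl/fl and -1.69 (SE 0.22, adjusted p = 1.25e-05) in PKM2-/- hearts. In PKM2fl/fl hearts it was -0.98 (SE 0.15, limma adjusted p = 0.000106) when PKM2fl/fl MI 3 was left out. Gnb4 shares 40.4% of the exon bases of Mfn1 and Fv1 shares 11.8% of those of Mfn2, both on the opposite strand. Gnb4 rose (log2 fold change 0.39, SE 0.07) and Fv1 fell (-1.15, SE 0.13).

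Opa1 (chromosome 16, 29579281 to 29663127, forward strand), the inner membrane fusion GTPase, had 4335, 4207 and 4697 normalized counts in PKM2fl/fl sham hearts and 2671, 2672 and 2031 after MI. For PKM2-/- hearts these were 4472, 5097 and 4815 after sham surgery and 2203, 2001 and 2059 after MI. The PKM2-/- MI hearts lay close together and below both PKM2fl/fl MI 1 and 2. The log2 fold change was -0.85 (SE 0.11, limma adjusted p = 1.26e-05) in PKM2fl/fl and -1.20 (SE 0.11, adjusted p = 4.55e-07) in PKM2-/- hearts. Without PKM2fl/fl MI 3 the PKM2fl/fl value was -0.72 (SE 0.08, limma adjusted p = 9.76e-06).

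Dnm1l (chromosome 16, 16312228 to 16359038, reverse strand), the fission GTPase, fell less than the fusion genes. It had 2858, 2650 and 2899 normalized counts in PKM2fl/fl sham hearts and 2156, 2300 and 1923 after MI. Knockout hearts had 3000, 2989 and 3132 after sham surgery and 2358, 1997 and 1972 after MI. Sham and MI hearts did not overlap. Its log2 fold change was -0.40 (SE 0.09, limma adjusted p = 0.00225) in PKM2fl/fl and -0.53 (SE 0.09, adjusted p = 0.000181) in PKM2-/- hearts. Yars2, on the opposite strand, shares 49.3% of the exon bases of Dnm1l and fell as well (log2 fold change -0.62, SE 0.10).

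Tfam (chromosome 10, 71225468 to 71238328, reverse strand), the mtDNA packaging factor, had 663, 755 and 693 normalized counts in PKM2fl/fl sham hearts and 402, 447 and 387 after MI. The PKM2-/- hearts had 629, 673 and 674 after sham surgery and 494, 406 and 407 after MI. All MI hearts were below all sham hearts. MI changed it by a log2 fold change of -0.77 (SE 0.11, limma adjusted p = 2.97e-05) in PKM2fl/fl and -0.60 (SE 0.11, adjusted p = 0.000193) in PKM2-/- hearts. Of the 13 mRNAs coded by the mitochondrial genome, which TFAM helps to transcribe, 12 fell over both genotypes, against 32.7% of all genes. Their median log2 fold change was -1.66, and a link to the fall of Tfam was not tested.

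**Figure D2:**
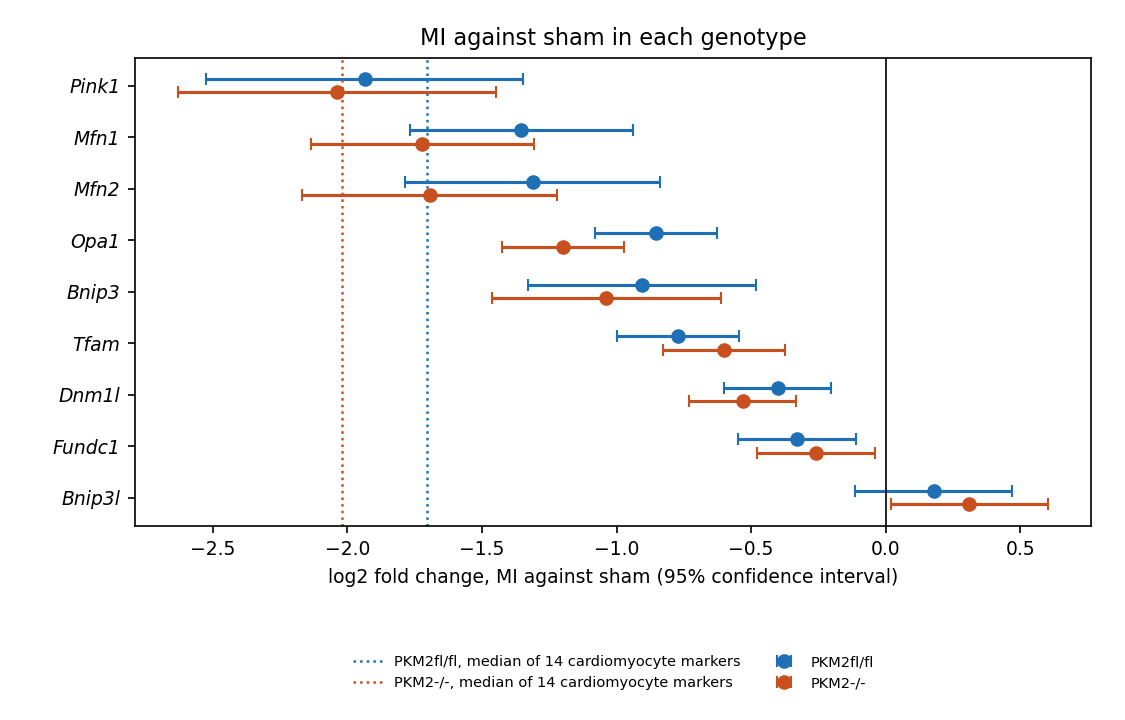
Log2 fold change of each gene, MI against sham (horizontal axis), with 95% confidence intervals; blue is PKM2fl/fl, orange PKM2-/-, and dotted lines are the median of 14 cardiomyocyte markers in each genotype (-1.70 and -2.02). Pink1 lies nearest to the dotted lines and Bnip3l lies to the right of 0.

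Because 2 genes measured in the same library share its size factor, the balance between genes was read as a log2 ratio within each library and compared between 6 sham and 6 MI hearts (exact permutation test within genotype, two-sided, for which p = 0.005 is the smallest possible). The fusion to fission ratio Opa1 to Dnm1l was 0.65 ± 0.07 (SD, n = 6) after sham surgery and 0.09 ± 0.15 after MI (exact p = 0.005), a change from 1.57 to 1.07 on the linear scale. Every MI heart was below every sham heart. Bnip3 to Bnip3l changed from 1.89 ± 0.34 to 0.67 ± 0.13 (exact p = 0.005), or from 3.70 to 1.59 on the linear scale. Counts were not divided by gene length here, so the change in a ratio is the quantity to read and not its level. Fundc1 to Pink1, which pairs the gene of the smallest fall with that of the largest, rose from -3.60 ± 0.09 to -1.90 ± 0.65 (exact p = 0.005). After MI the lowest value of Fundc1 to Pink1 was -2.64, above the highest sham value of -3.47. This separation follows from those 2 falls, measured in the same libraries, so its p-value adds no support. The ratio of the mitofusins, Mfn1 to Mfn2, was -0.79 ± 0.07 after sham surgery and -0.82 ± 0.10 after MI (exact p = 0.505), and the groups overlapped. Adjusted over the 4 ratios, the p-values were 0.00667 for each of the first 3 (exact permutation test) and 0.505 for the mitofusins. Each change in a ratio equals the difference between the log2 fold changes of its 2 genes over both genotypes, so it is not a separate result. After MI 32.7% of all genes fell and 32.9% rose. How often the ratios of other gene pairs separate was not counted, so these separations cannot be called particular to the members. A ratio removes the size factor but not a change in the mix of cells, and the part of that mix in these ratios was not tested.

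**Figure D3:**
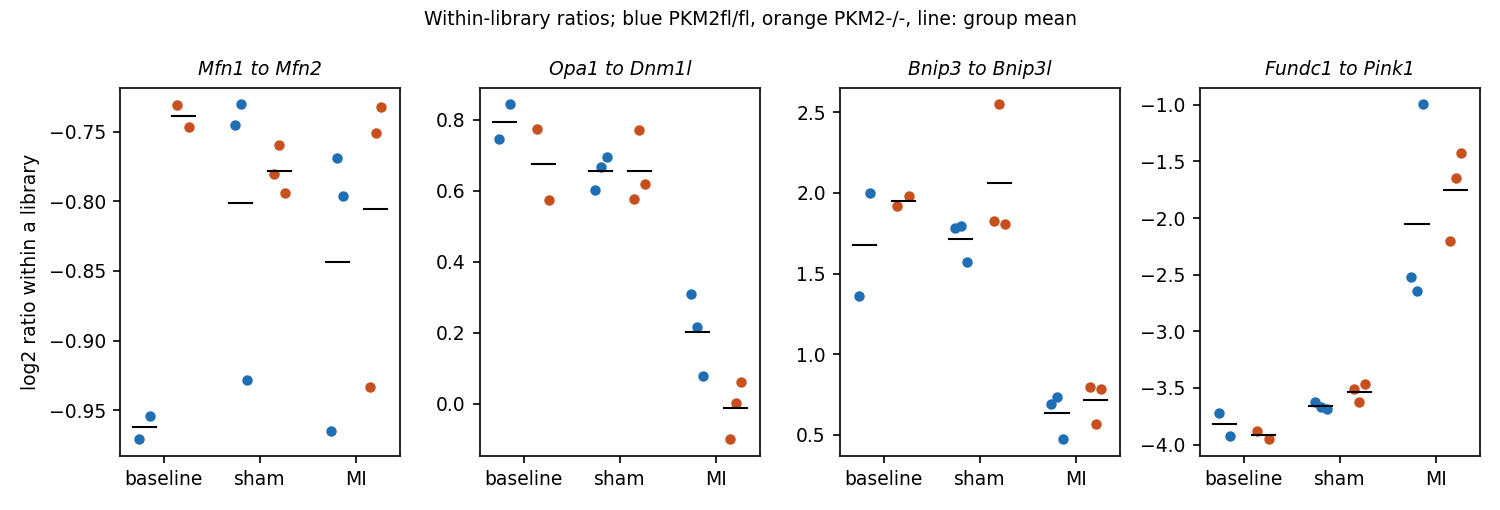
Log2 ratio of each pair of genes within a library (vertical axes, each with its own range), by treatment; blue points are PKM2fl/fl hearts, orange points PKM2-/- hearts and lines are group means. Sham and MI hearts separate for Opa1 to Dnm1l, Bnip3 to Bnip3l and Fundc1 to Pink1, and overlap for Mfn1 to Mfn2.

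The falls in 8 of the 9 genes came with a fall in cardiomyocyte transcripts. All 14 cardiomyocyte markers fell over both genotypes, with a median log2 fold change of -1.85, which was larger than the fall of every member but Pink1. Of 12 leukocyte markers 10 rose (median 1.85). Of 9 fibroblast markers 8 rose and Dcn fell (median 2.81), while 2 of 8 endothelial markers rose and 2 fell (median 0.11). The part of these markers in the result was not tested. When libraries were scaled to the 14 cardiomyocyte markers instead, 8 members were higher after MI, as were 90.5% of all genes, whose median log2 fold change became 1.83. On that scale Pink1 was at -0.15 (SE 0.14, limma adjusted p = 0.33) and Bnip3l, at 2.08, was the member above the all-gene median. Mfn1 and Mfn2 were at 0.30 and 0.34. When libraries were scaled to total reads, which moved the all-gene median to 0.17, 6 members were lower, against 18.3% of all genes. Bnip3l, Fundc1 and Dnm1l then did not pass. The direction given above for the 8 lower members is therefore relative to the bulk of transcripts in the tissue.

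**Figure D4:**
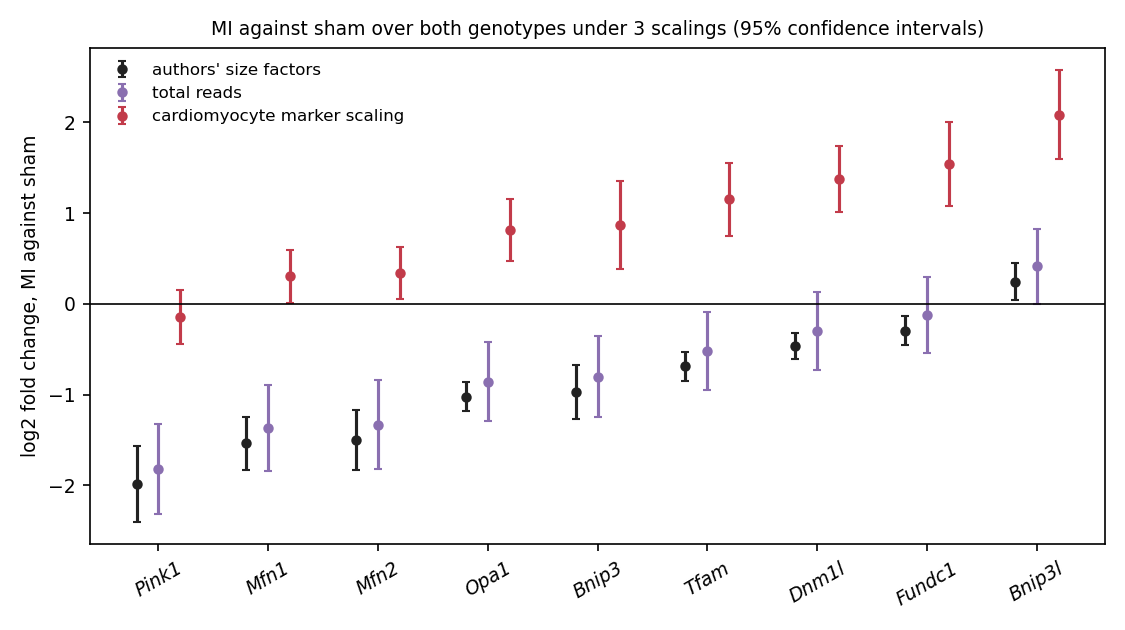
Log2 fold change of each gene, MI against sham over both genotypes (vertical axis), with 95% confidence intervals, under the authors' size factors (black), total reads (purple) and cardiomyocyte marker scaling (red). A change of scaling moves all genes by nearly the same amount, so their order is alike by construction. The red points lie at or above 0 for all but Pink1.

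Genotype was compared at baseline, after sham surgery and after MI to ask whether loss of PKM2 altered these transcripts. At baseline 0 of the 9 genes passed (limma adjusted p = 1 for each, 0 at an unadjusted p under 0.05), against 0.00972% of all genes. The largest difference was in Bnip3, with 2491 and 3588 normalized counts in PKM2fl/fl and 4268 and 3793 in PKM2-/- hearts (log2 fold change 0.43, 95% confidence interval -0.09 to 0.95). Pink1 had 6896 and 7833 normalized counts in PKM2fl/fl and 7641 and 8028 in PKM2-/- hearts. For the other 8 genes the differences lay between -0.14 and 0.16. With 2 hearts against 2, the 95% confidence interval was widest for Pink1 (-0.63 to 0.81) and narrowest for Dnm1l (-0.14 to 0.35). The spread behind these intervals was estimated over all 16 libraries and not from the baseline hearts alone. For Pink1 the SD was 6.51% of the mean in baseline hearts and 39.1% in MI hearts. After sham surgery 0 of 9 passed (limma adjusted p from 0.734 to 0.992, 0 at an unadjusted p under 0.05), against 0.00972% of all genes. Bnip3 again had the largest difference, 0.27 (-0.15 to 0.70), and Pink1 differed by -0.16 (-0.75 to 0.43). DESeq2 and edgeR called 0 of 9 in both comparisons. In both comparisons rRNA-related loci took more of the reads in every PKM2-/- heart than in any PKM2fl/fl heart, and their part in these values was not tested.

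After MI 0 of 9 genes passed between genotypes (limma adjusted p from 0.297 to 0.965, 0 at an unadjusted p under 0.05), against 0.967% of all genes. Opa1 differed by -0.23 (95% confidence interval -0.45 to 0.000998), Mfn1 by -0.32 (-0.74 to 0.09), Mfn2 by -0.36 (-0.83 to 0.11) and Pink1 by -0.27 (-0.86 to 0.32), each lower in PKM2-/- hearts. Differences in Bnip3 (0.14), Bnip3l (0.06), Fundc1 (0.03), Dnm1l (-0.01) and Tfam (0.08) were smaller. The first 4 values depended on PKM2fl/fl MI 3, the library with the low cardiomyocyte markers, which was the lowest of the 6 MI hearts for 5 members. Without it all 4 were lower in PKM2-/- hearts, as part of 11.0% of all genes called. Mfn1 then differed by -0.63 (SE 0.12, limma adjusted p = 0.00338), Pink1 by -0.74 (SE 0.14, adjusted p = 0.00456), Mfn2 by -0.70 (SE 0.15, adjusted p = 0.00913) and Opa1 by -0.36 (SE 0.08, adjusted p = 0.0151). The same 4 passed with limma-voom when libraries were weighted by quality (adjusted p from 0.00995 to 0.0238), where 8.15% of all genes did. The weights were estimated from these same libraries, so this is not a separate result. Its values were close to those without PKM2fl/fl MI 3 (Mfn1 -0.62, Pink1 -0.72, Mfn2 -0.71 and Opa1 -0.35). DESeq2 and edgeR called 0 of 9 with all libraries. With all libraries, the cardiomyocyte markers moved the same way, with a median of -0.44 between genotypes after MI and 0 of 14 called. Without PKM2fl/fl MI 3, their sums were 732193 and 735105 in PKM2fl/fl and 334662 to 441049 in PKM2-/- MI hearts. Scaling to the markers was not fitted without that library. Scaled to those markers, with all libraries, Mfn1 differed by 0.12, Pink1 by 0.18, Mfn2 by 0.09 and Opa1 by 0.22, and none passed (limma adjusted p from 0.522 to 0.77). That scaling moved the median of all genes to 0.44, so these 4 values still lay below the bulk of genes. The other members were at 0.43 to 0.59.

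The interaction term asked whether the change from sham to MI differed between genotypes. It called 0 of 9 members (limma adjusted p from 0.579 to 0.965) and 0% of all genes, of which 1703 had an unadjusted p under 0.05. Opa1 was the 1 member with an unadjusted p under 0.05 (-0.34, 95% confidence interval -0.66 to -0.02). DESeq2 and edgeR called 0 members. Without PKM2fl/fl MI 3 the fall was larger in PKM2-/- hearts for Mfn1 (-0.68, SE 0.16, limma adjusted p = 0.037) and Opa1 (-0.48, SE 0.11, adjusted p = 0.0413), with 2.35% of all genes called. Sham surgery against baseline called 0 of 9 members over both genotypes (limma adjusted p from 0.399 to 0.952, 0 at an unadjusted p under 0.05), against 6.54% of all genes. The largest differences were in Pink1 (-0.14, -0.60 to 0.33) and Fundc1 (0.14, -0.04 to 0.31). DESeq2 and edgeR called 0 members there too. In that comparison all 12 leukocyte markers rose, with a median of 1.08.

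Other genes of these pathways were compared between sham and MI hearts over both genotypes. Of 20 further mitophagy adaptors, receptors and regulators tested, 11 fell and 3 rose (median log2 fold change -0.46). Nipsnap2, a tag on damaged mitochondria (-1.79, SE 0.16), and Bcl2l13, a mitophagy receptor (-0.90, SE 0.08), were among those that fell. Those that rose were the autophagy kinase Tbk1 (0.55, SE 0.09), the autophagy regulator Ambra1 (0.26, SE 0.07) and the deubiquitinase Usp8 (0.17, SE 0.06). Of 19 core autophagy genes 11 fell and 3 rose (median -0.42). Map1lc3a (-1.52, SE 0.16), Map1lc3b (-0.86, SE 0.08) and Gabarapl1 (-0.88, SE 0.10), which code for proteins that coat the autophagosome, fell. Atg7 (0.88, SE 0.08), Atg3 (0.46, SE 0.07) and Atg5 (0.19, SE 0.07), which act in attaching those proteins to lipid, rose.

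Of 27 further fission, fusion, cristae and transport genes 22 fell and 2 rose (median -0.72). Apoo (-1.54, SE 0.08) and Chchd3 (-1.14, SE 0.08), subunits of the cristae-organizing complex, fell, as did Rhot2, which links mitochondria to motors (-1.78, SE 0.16). Inf2, which nucleates actin at fission sites (0.65, SE 0.09), and the dynamin gene Dnm2 (0.26, SE 0.06) rose. Of 20 genes of mtDNA maintenance, transcription and biogenesis 16 fell and 2 rose (median -0.72). The coactivator gene Ppargc1b (-1.51, SE 0.15) and Mterf2, of the mitochondrial transcription termination factor family (-0.98, SE 0.09), fell, as did Tfb2m, which acts beside TFAM in transcription. Pprc1, another coactivator gene (0.83, SE 0.09), and the transcription factor gene Nrf1 (0.35, SE 0.08) rose. Of all genes tested, 32.7% fell and 32.9% rose.

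Hypoxia-inducible genes, the group to which Bnip3 is often assigned, numbered 14, of which 6 rose, against 32.9% of all genes, and 5 fell, against 32.7% (median -0.04). The glucose transporter gene Slc2a1 rose by 1.62 (SE 0.14) and Car9, a carbonic anhydrase, by 1.26 (SE 0.21). The oxygen sensor Egln1 (-1.54, SE 0.13), Pdk1 (-1.03, SE 0.09) and Hk2 (-1.11, SE 0.12), both enzymes of glucose use, fell as Bnip3 did. Between genotypes after MI, Ddit4, a stress-induced inhibitor of mTOR signalling, was the member of these lists that passed, higher in PKM2-/- hearts (1.58, SE 0.30, limma adjusted p = 0.0319). Ddit4 (1.70, SE 0.24) and P4ha1, a collagen prolyl hydroxylase gene (0.61, SE 0.13), were also higher after sham surgery than at baseline, and Fbxl4, which limits mitophagy receptors, was lower (-0.41, SE 0.11).

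Over the 16 hearts, Pink1, Mfn1, Mfn2 and Opa1 varied together, with Pearson's r between 0.976 and 0.994 on the log2 scale, and Bnip3l ran against Mfn2 (r = -0.716). The 16 hearts include the 6 MI hearts, and these correlations are given as description. The genes most like each member by r, out of 20567, were Sdha (0.997) and Idh2 for Pink1, both enzymes of the citric acid cycle. Slc2a4, the insulin-responsive glucose transporter gene, was nearest to both Mfn1 and Mfn2 (0.996 and 0.997), followed by Tmem38a for Mfn1 and the sarcomere gene Actn2 for Mfn2. Opa1 was nearest to Selenbp1 (0.993) and D5Ertd579e, Dnm1l to Polr2m (0.982) and Ubxn2a, and Tfam to Vdac3-ps1 (0.984) and Uqcrfs1, a subunit of respiratory complex III. Bnip3 was nearest to the overlapping Gm45507 (0.959) and to Aldh1l1 (0.947), Fundc1 to Actr6 (0.930) and Tmem42, and Bnip3l to Zdhhc2 (0.919) and C1galt1.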

How the data were processed

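The 9 genes and the pathway and marker lists were chosen with earlier results of these data known. Libraries came from 16 left ventricles, 1 mouse each, grouped by the sample labels. The authors processed the reads with PRINSEQ, HISAT2 (mm10), featureCounts and DESeq2, with versions and the strand setting not given in the sources used here. They deposited a signal, the normalized count (reads divided by a size factor). The authors' columns of log2 fold change, Wald score and p-value for baseline hearts were not used. Read numbers were recovered by division, within 0.05 of a whole number for 100% of values.

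Tests used limma 3.58.1 (trend) in R 4.3.3 on log2(normalized count + 1) in 6 groups, for 20576 genes with a mean of at least 10, with Benjamini-Hochberg adjustment. Fold changes are on that log2(value + 1) scale and understate changes of low genes. Models were tested on simulated data. Alternatives were edgeR 4.0.16, DESeq2 1.42.0 and limma-voom, fitted to the recovered numbers, other scalings, pseudocounts of 0.1 and 10, no filter, the compared groups alone, a replicate block and each library left out. Named genes were the members, up to 3 called genes per list and direction with the smallest p (up to 5 per list outside MI against sham), and the 2 genes most correlated with each member. Genes sharing exons with a member were named after their values were seen. Exon lengths and overlaps come from GENCODE M39, positions and promoters from RefSeq on GRCm38.p6. 1 gene is not reported here.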

Additional observations from a re-analysis of the deposited data

How the results depend on the processing

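Of 2088 refits of a member in a comparison, 45 lost a call, 17 gained one and 22 reversed with a call, 5 of which did not pass in the new direction (Mfn1 and Mfn2 in each genotype by cardiomyocyte markers and Fundc1 by total reads), while 86 changed sign without passing in either fit. Under cardiomyocyte marker scaling, log2 fold changes after MI reversed in PKM2fl/fl, PKM2-/- and both genotypes for Bnip3 (0.77, 0.97, 0.87), Fundc1 (1.34, 1.75, 1.54), Mfn1 (0.32, 0.29, 0.30), Mfn2 (0.36, 0.31, 0.34), Opa1 (0.82, 0.81, 0.81), Dnm1l (1.27, 1.48, 1.37) and Tfam (0.90, 1.41, 1.15). Scaling by total reads put Fundc1 at 0.25 in PKM2-/- hearts and left 4 of 9 members called there. Between genotypes after MI, limma-voom with sample weights called 4 members, and leaving out 1 library called 0 to 4. For the interaction leaving out 1 library called 0 to 2. In each case PKM2fl/fl MI replicate 3 gave the highest number, and the cause was not tested. Other member counts for a comparison stayed within 1.5 times of the value reported.

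Numbers of all genes called between genotypes depended on the tool. After MI limma called 199, DESeq2 1029, edgeR 138, edgeR without a filter 1710 and limma-voom 1888, and limma called 2271 without PKM2fl/fl MI replicate 3 and 11 without PKM2-/- MI replicate 3. With the compared groups only it called 6, by cardiomyocyte markers 16, by total reads 123, and by total reads outside rRNA-related loci and the mitochondrial genome 69. At baseline limma called 2, DESeq2 11, edgeR 1 and edgeR without a filter 214; after sham surgery these were 2, 266, 2 and 716, with 50 by limma-voom. Leaving out 1 library gave 0 (without PKM2fl/fl baseline replicate 1 or PKM2-/- baseline replicate 2) to 40 (without PKM2-/- baseline replicate 1) at baseline, and 0 to 89 (without PKM2-/- sham replicate 3) after sham surgery, with 42 without PKM2fl/fl MI replicate 3. The compared groups only gave 42 and 9, and total reads 44 and 113. For the interaction they were 0, 60, 0 and 538. Same-numbered libraries did not deviate together (r from -0.09 to 0.13, median -0.04 over 18 pairs), and 1 of 12 libraries correlated best with its own number. With the replicate block 7 of 9 members were called after MI in PKM2-/- hearts in place of 8, and 75 genes between genotypes after MI. The rRNA-related loci took 15.8% to 46.0% of reads.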
